A study of Mus musculus with 3 samples.

Results

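The genes described here encode proteins of the podocyte, the epithelial cell that covers the glomerular capillaries, and they were examined in the progenitor cells from which podocytes arise. The 8 genes were chosen by name for their known podocyte roles: Nphs1, Podxl, Synpo, Ptpro, Clic5, Magi2, Cd2ap and Actn4. Of these, 7 genes had a probe set that the platform annotation assigns to a single gene, with 15 such probe sets in all, out of 18193 named genes and 45101 probe sets on the array. Magi2, which encodes a scaffold protein that binds nephrin, had none and was not analysed here.

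The study profiled cap mesenchyme, the cells that surround the ureteric tips and give rise to nephrons. The cells came from E15.5 kidneys (Theiler stage 23) of CD-1 embryos carrying Tg(Six2-EGFP/cre)1Amc, a transgene that expresses an EGFP and cre fusion under Six2 control. Kidneys were dissociated with trypsin, cells were isolated by fluorescence-activated sorting, and total RNA was amplified in 2 rounds before it was labelled with biotin and hybridised. There were 3 arrays in a single group, and each array held RNA of some 5 to 10 pooled kidneys, here pools 1 to 3. All 3 carried the transgene, there was no untreated or other sorted population, and the labels do not say whether the pools came from separate litters, so the p-values measure only the spread between these samples.

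Podocytes differentiate from nephron progenitors late in nephron formation. Their foot processes interdigitate around the capillary and are joined by the slit diaphragm, a filtering junction built on nephrin and its partners. Adaptor proteins tie that junction to a contractile actin cytoskeleton, and a negatively charged coat on the apical face keeps neighbouring processes apart. Many of the adaptor and actin genes are expressed in a wide range of cells, whereas nephrin is largely restricted to podocytes within the kidney.

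Each probe set was compared with the background of its own array. The background level was the 95th percentile of 150 probe sets for olfactory, vomeronasal and taste receptors, keratin-associated proteins and defensins, and its values for the pools in order were 197, 186 and 201. A probe set was called above background when the mean over pools of log2(signal + 16) exceeded that level with an adjusted p under 0.05 (one-sided limma test with Benjamini-Hochberg adjustment over all 45037 probe sets without controls). Of 10 cap mesenchyme genes, 10 were above background (9 against its 99th percentile), against 54.4% of all named genes. Among them were Six2 (7905 ± 1904, SD, n = 3) and Cited1 (878 ± 121, SD, n = 3). This is no independent check of the label, since the kidneys carried EGFP under Six2 control and the list was chosen with earlier results known. Of 8 stromal genes 7 were above background too, so the count does not set cap mesenchyme apart from stroma. The 3' to 5' signal ratio of the control transcripts, a measure of RNA length after amplification, was between 4.08 and 5.05 on the log2 scale for Gapdh and between 1.82 and 3.28 for beta-actin, where pool 1 had the lowest ratio. Signals below are linear array intensities. The number of arrays limits their precision, and because probe sets differ in affinity the signal of a probe set says nothing about the level of a gene relative to another.

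Transcripts of 4 of the 7 measured podocyte genes were above background: Cd2ap, Actn4, Ptpro and Podxl. Nphs1, Synpo and Clic5 were not. The 4 genes make up 57.1% of those measured, against 54.4% of all named genes, and the 6 probe sets called among 15 make up 40.0%, against 41.5% of all probe sets, so the share was near that of any gene on the array. The median difference from background of the 7 genes, each by its probe set of highest mean log2 signal, was 1.72 on the log2 scale, against 1.20 over all named genes. In RNA from a sorted population, fewer cells of a type and less RNA per cell cannot be told apart.

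**Figure D1:**
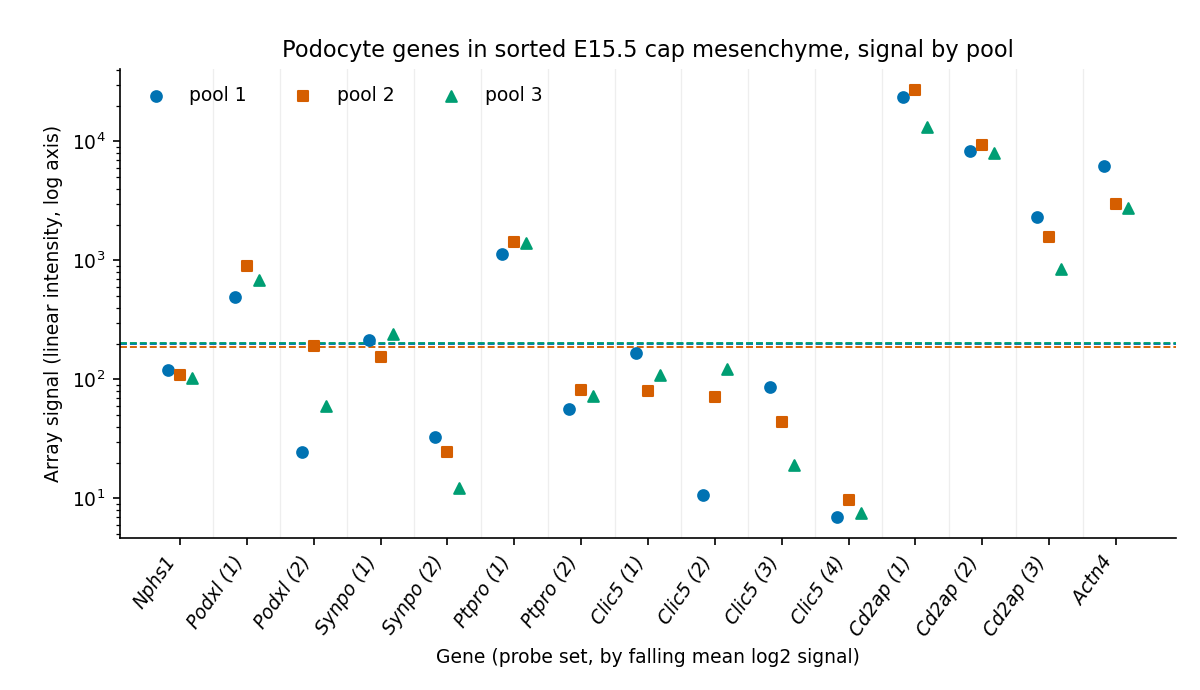
Linear array signal on a log axis for the 15 probe sets of 7 podocyte genes, a point for each pool; probe sets of a gene are numbered by falling mean log2 signal, and the dashed lines mark the background level of each pool in the same colour. All points of the 3 Cd2ap probe sets, Actn4, the first Ptpro and the first Podxl probe set lie over the lines, while no point of Nphs1 or Clic5 does.

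The starts of these genes differ in sequence in a way that is known to separate widely expressed from restricted genes, namely in the number of CpG dinucleotides. RefSeq sequences from 250 bases before to 50 bases after the gene start (GRCm38.p6) were used for 5 of the 7 measured genes, that is Nphs1, Ptpro, Clic5, Cd2ap and Actn4. Of these, 3 are printed here: Cd2ap, which was called on all its probe sets, Nphs1, which was not called, and Ptpro, which was called although its start is as poor in CpG as that of Nphs1. They lie at chr17:42876375-42876674 on the minus strand, chr7:30459808-30460107 on the plus strand and chr6:137252049-137252348 on the plus strand. Each is written 5′ to 3′, and capitals mark CpG.
Cd2ap: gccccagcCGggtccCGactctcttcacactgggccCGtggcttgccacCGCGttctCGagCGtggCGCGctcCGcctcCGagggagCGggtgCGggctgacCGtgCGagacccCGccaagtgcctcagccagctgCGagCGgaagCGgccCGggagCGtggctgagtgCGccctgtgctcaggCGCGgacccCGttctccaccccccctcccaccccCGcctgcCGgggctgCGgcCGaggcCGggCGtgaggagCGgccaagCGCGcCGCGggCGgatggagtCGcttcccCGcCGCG
Nphs1: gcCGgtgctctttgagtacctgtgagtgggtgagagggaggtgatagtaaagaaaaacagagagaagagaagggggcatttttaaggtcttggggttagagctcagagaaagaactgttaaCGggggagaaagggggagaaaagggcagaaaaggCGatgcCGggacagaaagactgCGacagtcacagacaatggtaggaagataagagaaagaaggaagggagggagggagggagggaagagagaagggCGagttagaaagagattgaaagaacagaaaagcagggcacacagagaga
Ptpro: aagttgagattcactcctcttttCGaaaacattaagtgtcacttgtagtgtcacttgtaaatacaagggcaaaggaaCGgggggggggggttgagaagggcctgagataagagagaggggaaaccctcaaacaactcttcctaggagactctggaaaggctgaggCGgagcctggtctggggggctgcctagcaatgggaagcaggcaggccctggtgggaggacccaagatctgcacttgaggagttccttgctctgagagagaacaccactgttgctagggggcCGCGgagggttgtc

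The Cd2ap start held 41 CpG in 300 bases and that of Actn4 held 35, whereas the starts of Nphs1 and Ptpro held 6 and 5. Clic5 was in between with 16. No start of Podxl or Synpo was used, so Nphs1 and Clic5 alone stand for the podocyte genes that were not called. Over the 11791 named genes with a single listed start, the median was 23 CpG (quartiles 16 and 30) for the 6420 genes above background and 7 (quartiles 3 and 17) for the 5371 genes not above background. Of genes with 30 or more CpG, 79.1% were above background, and of genes with 5 to 9, the class of Nphs1 and Ptpro, 23.8% were. Ptpro thus belonged to the minority of its class that was called, and Nphs1 to the majority that was not. Clic5 was not called although 64.7% of genes with 10 to 19 CpG were. These shares are a description across genes, which are not independent replicates.

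**Figure D2:**
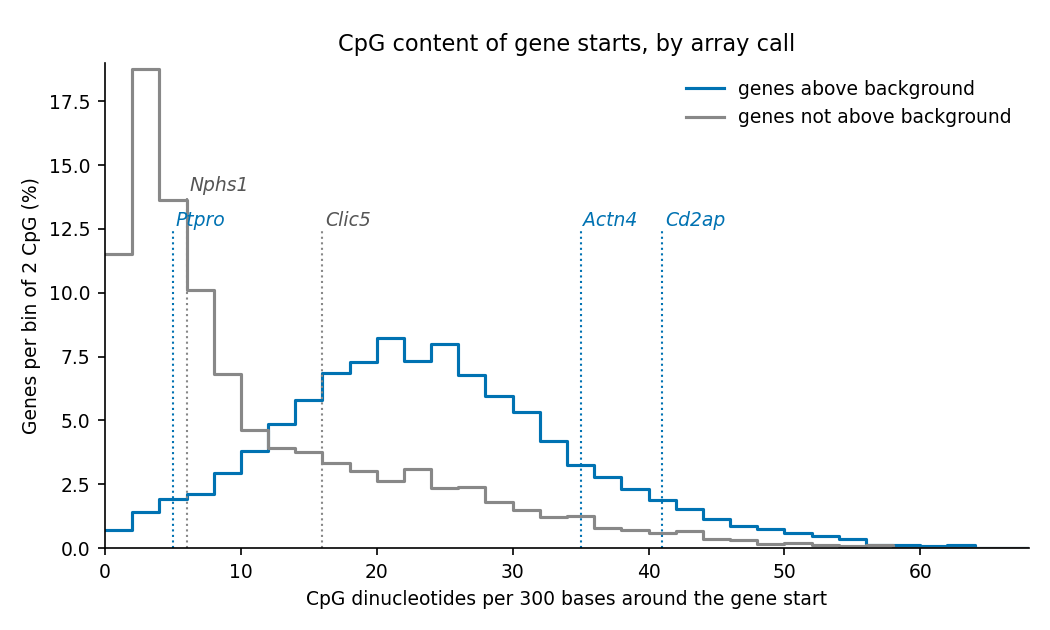
Distribution of CpG dinucleotides per 300 bases around the gene start, in percent of genes per bin of 2 CpG, for genes above background (blue, 6420 genes) and not above background (grey, 5371 genes); dotted lines mark 5 podocyte genes, coloured by their own call. Actn4 (35) and Cd2ap (41) lie on the right of both distributions, and Ptpro (5) and Nphs1 (6) lie among the starts poor in CpG.

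The same 5 starts were searched on both strands for 3 short motifs. The letters GNGTGGGNG, a form of the site bound by the podocyte and progenitor transcription factor Wt1, occurred in 3 of the 5, namely Actn4, Cd2ap and Nphs1, and in 14.3% of all 32851 listed starts. Among genes with a single listed start they occurred in 17.3% of those above background and 16.9% of those not above it, so the motif hardly differed with the call. The E-box CANNTG, bound by helix-loop-helix factors such as Tcf21, occurred in Actn4, Cd2ap and Ptpro, and in 72.3% of all starts. TATAAA was in none of the 5 and in 13.6% of all starts. A match of letters is not evidence of binding.

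Nphs1 encodes nephrin, the adhesion protein that spans the slit between foot processes. Its single probe set (1422142_at) read 119, 110 and 102 in pools 1, 2 and 3. All 3 values lay below the background level of their array, at 0.606, 0.591 and 0.507 times that level. The mean difference from background was -0.74 ± 0.33 (SE, n = 3) on the log2 scale, with a 95% interval from -1.52 to 0.04 (adjusted p = 1, limma). A signal below background does not show that the transcript was absent.

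Cd2ap encodes an adaptor that binds nephrin and joins it to actin and to endocytic proteins, and it is also expressed outside podocytes. All 3 of its probe sets were above background in every pool. The probe set 1420906_at read 23563, 26872 and 13286 in pools 1, 2 and 3, which is 120, 145 and 66.1 times the background level of each array. Its mean difference from background was 6.60 ± 0.22 (SE, n = 3) on the log2 scale (adjusted p = 6.3e-08, limma). The second, 1420907_at, read 8359, 9421 and 7941, and the third, 1420908_at, read 2334, 1579 and 846. Pool 3 was the lowest on each of the 3 probe sets. The size of its deficit differed between them, since the highest and lowest pools were 2.02-fold apart on the first, 1.19-fold on the second and 2.73-fold on the third.

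Actn4 encodes alpha-actinin-4, the actin crosslinker of foot processes, whose dominant mutations cause kidney disease with scarred glomeruli. Its probe set (1423449_a_at) read 6185, 2996 and 2757 in pools 1, 2 and 3. All pools were well over their background level, by 31.4, 16.1 and 13.7 times, and pool 1 stood apart from the others. The mean difference from background was 4.15 ± 0.23 (SE, n = 3) on the log2 scale (adjusted p = 1.0e-06, limma). Pool 1 was also the pool with the lowest 3' to 5' ratio of the beta-actin control (1.82, against 3.28 and 3.18 on the log2 scale in pools 2 and 3), whereas for the Gapdh control pool 1 was in the middle (4.36, against 5.05 and 4.08). The part of RNA length in the Actn4 difference was not tested.

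Synpo encodes synaptopodin, an actin-associated protein that appears as foot processes form. The probe set with its higher mean, 1434089_at, read 214, 155 and 243 in pools 1, 2 and 3. Pools 1 and 3 lay just over the background level of their arrays, at 1.09 and 1.21 times that level, and pool 2 lay under it at 0.837 times. The mean difference was 0.04 ± 0.29 (SE, n = 3) on the log2 scale, with a 95% interval from -0.64 to 0.73 (adjusted p = 0.904, limma). The other probe set, 1427045_at, read 32.6, 24.5 and 12.3. Of the 3 genes that were not called, Synpo was the one whose value straddled the background level.

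Ptpro encodes a receptor tyrosine phosphatase of the apical podocyte membrane. On the probe set 1417676_a_at it read 1133, 1440.25 and 1392 in pools 1, 2 and 3. All pools were over the background level, by 5.76, 7.76 and 6.92 times, and they differed by 1.27-fold at most. The mean difference was 2.66 ± 0.15 (SE, n = 3) on the log2 scale (adjusted p = 1.1e-06, limma). Its other probe set, 1425863_a_at, was not above background, with signals of 56.0, 80.8 and 73.05. When the probe sets were averaged, Ptpro kept its call at a smaller difference of 0.68 (adjusted p = 0.0107, limma, within 2.4e-08 to 0.0107 over 12 alternatives). Ptpro is known from some blood cell lineages as well. Of 8 macrophage genes 0 were above background in limma, against 54.4% of all named genes (also 0 at an unadjusted p under 0.05). Cd68 read 196, 233 and 461 in pools 1, 2 and 3. It exceeded the background level on 2 of 3 arrays and was called at the 90th percentile of background. The part of blood cells in the Ptpro signal was not tested.

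Podxl encodes podocalyxin, the sialomucin that gives the apical podocyte surface its negative charge. On the probe set 1448688_at it read 492, 903 and 690.5 in pools 1, 2 and 3, or 2.50, 4.86 and 3.44 times the background level. Pool 2 was the highest and pool 1 the lowest. The mean difference was 1.72 ± 0.22 (SE, n = 3) on the log2 scale (adjusted p = 0.00017, limma). The other probe set, 1417396_at, has the same order of pools but did not pass, with signals of 24.5, 191 and 59.7, of which only that of pool 2 reached the background level. The call of Podxl depended on 2 choices: at the 99th percentile of background the difference was 0.59 (adjusted p = 0.0589), and with both probe sets averaged it was 0.21 (adjusted p = 0.513, limma, within 5.1e-06 to 0.513 over 12 alternatives).

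Podxl is also a gene of vascular endothelium, so the endothelial markers were read beside it. Of 12 such genes 1 was above background (8.33%, against 54.4% of all named genes), the secreted factor gene Egfl7 (591 ± 45.9, SD, n = 3). At an unadjusted p under 0.05 in limma there were 2. The adhesion genes Pecam1 (47.6 ± 20.3) and Cdh5 (83.9 ± 28.3) and the angiopoietin receptor gene Tek (32.4 ± 26.3, SD, n = 3 each) were not above background, and the lowest mean in the list was that of Tie1 at 3.82. Esam (313 ± 96.4) exceeded the background level on 3 of 3 arrays and Kdr (206 ± 8.91, SD, n = 3 each) on 2 of 3, but neither was called. The summed signal of the 12 genes was 1709, 1632 and 1718 in pools 1, 2 and 3. Egfl7 read 591, 545 and 636 and was highest in pool 3, whereas Podxl was highest in pool 2. The order of pools for the other endothelial genes rests on signals not above background and is not read. The part of endothelial RNA in the Podxl signal was not tested. The count of endothelial genes called was 0 at the 99th percentile of background, and 2 at the 90th percentile or when only probe sets with a mean signal of at least 50 were fitted.

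Clic5 encodes a protein of the chloride intracellular channel family that associates with ezrin and podocalyxin at the apical membrane of foot processes. None of its 4 probe sets was above background in limma, and none had an unadjusted p under 0.05. Its probe set of highest mean log2 signal, 1458381_at, read 168, 80.2 and 109.9 in pools 1, 2 and 3, all below the background level, and its mean difference was -0.69 ± 0.35 (SE, n = 3) on the log2 scale with a 95% interval from -1.52 to 0.15 (adjusted p = 1). The others had mean signals of 68.3, 49.6 and 8.11. The related Clic4, a broadly expressed member of the family, was above background at 21089 ± 2136 (SD, n = 3).

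**Figure D3:**
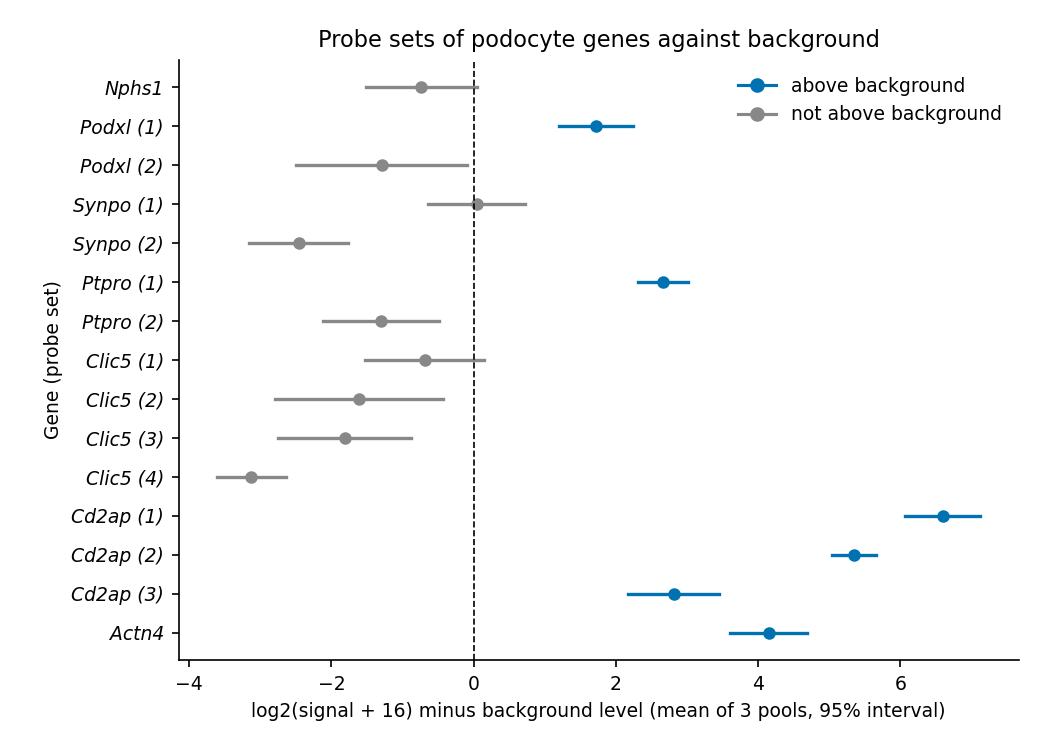
Mean over 3 pools of log2(signal + 16) minus the background level, with its 95% interval, for each probe set of the 7 podocyte genes; blue probe sets were above background and grey ones were not. Cd2ap is blue on 3 of 3 probe sets, Ptpro and Podxl are blue on 1 of 2, and the interval of the first Synpo probe set reaches from -0.64 to 0.73.

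Among the 4 genes above background, each by its probe set of highest mean log2 signal, pool 2 was highest for Podxl, Ptpro and Cd2ap and pool 1 for Actn4. Of all probe sets above background, 36% were highest in pool 1, 26.5% in pool 2 and 37.5% in pool 3. The order of pools for Nphs1, Clic5 and Synpo rests on signals not above background and is not read. The log2 range between pools was 0.34 for Ptpro, 0.85 for Podxl, 1.02 for Cd2ap and 1.16 for Actn4. Over all probe sets above background the median range was 0.49. With each gene given by its probe set of highest mean log2 signal, as here, it was 0.44. The ranges of Podxl, Cd2ap and Actn4 stood at the 81.5th, 87.9th and 91.4th percentile of all probe sets above background, and that of Ptpro at the 30.5th. The place of Cd2ap depended on the probe set, since 1420907_at had a range of 0.25 (17.6th percentile) and 1420908_at of 1.45 (95.5th percentile). Pools are samples of a single group, so these ranges describe their spread and were not given a test.

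**Figure D4:**
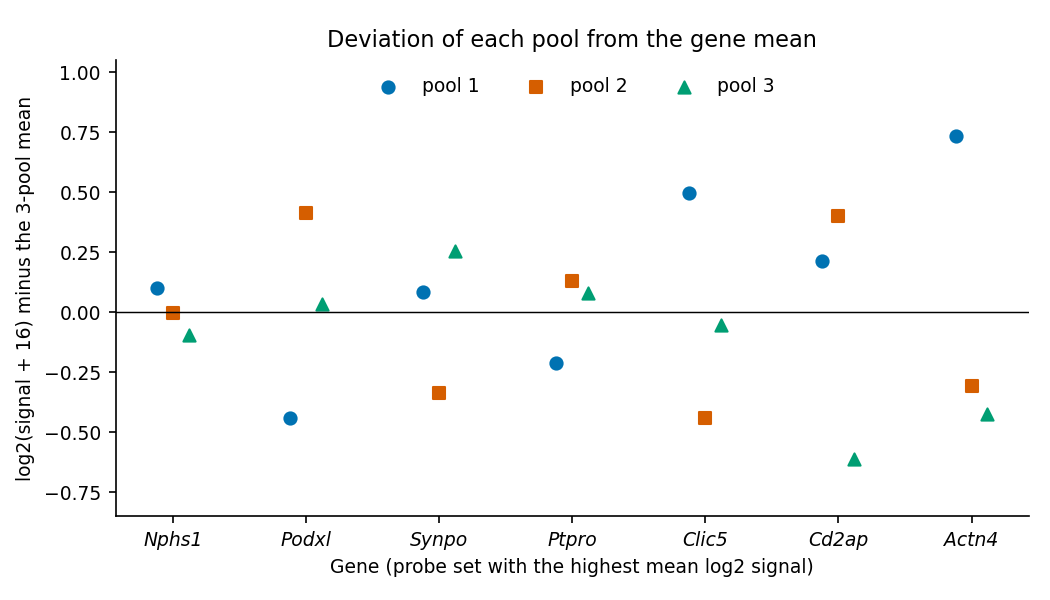
Deviation of each pool from the 3-pool mean of log2(signal + 16), for the probe set of highest mean log2 signal of 7 podocyte genes. Actn4 is highest in pool 1 (0.73), Cd2ap lowest in pool 3 (-0.61) and Podxl lowest in pool 1 (-0.44); Nphs1, Synpo and Clic5 were not above background, so their points show the spread of background signals.

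Over 5 lists of other podocyte genes with 80 measured members, 70 were above background (87.5%, against 54.4% of all named genes), and the median difference from background was 3.42 on the log2 scale, against 1.20. Many of them serve all cells or mesenchyme at large, and the lists were given no test and were chosen with earlier results of these data known. A gene counted when at least 1 of its single-gene probe sets passed, and its signal is that of the probe set of highest mean log2 signal. Several of the genes named below passed on only part of their probe sets. Kirrel, Mme, Tcf21, Lmx1b, Arhgap24, Angpt1, Hspg2 and Cfl1 passed on 1 of 2, and Nck2 and Sema3a on 1 of 3. Nck1, Rac1, Dach1 and Lama5 passed on 2 of 3, Lamb1 on 2 of 4 and Zeb2 on 2 of 5. For others the number is given where they are named. Among 9010 genes on the array with several probe sets, 4173 had them on both sides of the call. Of the markers that define podocytes, 3 of 5 measured (60%) were above background, namely Podxl, Ptpro and Tcf21, with Nphs1 and Synpo not above it, and all but Tcf21 are among the genes already described. Among the slit diaphragm partners and polarity genes 11 of 13 were above background. The nephrin-like adhesion gene Kirrel read 1506, 2905 and 3592 in pools 1, 2 and 3 (3.58 ± 0.24 over background on the log2 scale, SE, n = 3). The giant cadherin gene Fat1 was at 34448 ± 4589, the junction scaffold gene Tjp1 at 9492 ± 266, the adaptor genes Nck1 and Nck2, which dock on phosphorylated nephrin, at 2745 ± 162 and 2266 ± 208, and Fyn, the kinase that phosphorylates it, at 1994 ± 69.1 (SD, n = 3 each). Magi1, a relative of Magi2, was above background on 1 of 5 probe sets (1211 ± 285), which can match several transcripts. The calcium channel gene Trpc6 (28.5 ± 12.2) and Kirrel3 (15.4 ± 8.02, SD, n = 3 each) were not above background.

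Genes of the actin cytoskeleton of foot processes were above background in 20 of 21 cases (95.2%, against 54.4% of all named genes). The formin gene Inf2, mutated in inherited podocyte disease, was at 676 ± 114, the unconventional myosin gene Myo1e at 1173 ± 122, the nonmuscle myosin gene Myh9 at 5225 ± 2325 and the intermediate filament gene Nes at 763 ± 117 (SD, n = 3 each). Inf2 passed on 1 of 2 probe sets, Myo1e on 1 of 4, Myh9 on 4 of 5 and Nes on 2 of 3. The small GTPase genes Cdc42 and Rac1, which steer actin assembly in all cells, were above background as well. The member that was not called was Ddn, which encodes dendrin, a slit diaphragm protein (171 ± 14.3, SD, n = 3). The Rac regulator gene Arhgap24 (487 ± 62.6, SD, n = 3) did not pass against the 99th percentile of background.

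Of 12 genes of the apical membrane and its linkers, 8 were above background (66.7%, against 54.4% of all named genes). The linker that ties podocalyxin to actin was represented by ezrin, Ezr, at 5247 ± 853 and by the scaffold gene Slc9a3r1 at 13131 ± 1223, whereas the podocyte scaffold gene Slc9a3r2 did not pass at 262 ± 49.6 (SD, n = 3 each). It was called at the 90th percentile of background. The mucin-type gene Pdpn was at 2903 ± 222, and the surface peptidase genes Mme and Enpep at 771 ± 259 and 1332 ± 331 (SD, n = 3 each). Thsd7a and Pla2r1, which encode the antigens of membranous nephropathy, and the rhophilin gene Rhpn1 were not above background, with mean signals of 131, 131 and 67.2.

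Genes of the glomerular basement membrane and its receptors were above background in 15 of 18 cases (83.3%, against 54.4% of all named genes). The type IV collagen chains were divided. Col4a1 and Col4a2, the chains of embryonic and general basement membranes, were at 13262 ± 2420 and 7808 ± 313, and Col4a5 was at 1729 ± 352 (SD, n = 3 each). Col4a3 and Col4a4, the chains that podocytes add to the mature glomerular membrane, were not above background, and Col4a3 read 179, 8.42 and 89.8 in pools 1, 2 and 3. Among laminins, the embryonic chain gene Lamb1 was at 25722 ± 3848 and its mature counterpart Lamb2 at 685 ± 199 (SD, n = 3 each), both above background. Lama1 (325 ± 57.6) and Lama5 (343 ± 19.1, SD, n = 3 each) were called close to the level, with adjusted p of 0.0300 and 0.0143 (limma). Neither passed when pool 2 was left out or against the 99th percentile, and Lama1 did not pass when pool 3 was left out. The integrin gene Itga3 did not pass (288 ± 47.8, SD, n = 3), and it was called at the 90th percentile of background and when only probe sets with a mean signal of at least 50 were fitted.

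All 16 measured transcription factor and signal genes of the podocyte list were above background, against 54.4% of all named genes. The count was 14 when pool 2 was left out and 13 against the 99th percentile of background. Several of them, such as Wt1, Bmp7, Robo2 and Dach1, are known in cap mesenchyme itself. Wt1, which later drives nephrin expression, read 14753, 8513 and 8019 in pools 1, 2 and 3. Foxc1 and Foxc2, forkhead genes needed for podocyte differentiation, were at 18347 ± 1712 and 5108 ± 2789, the LIM homeobox gene Lmx1b at 1179 ± 242, and Tcf21, which is active in stroma and in podocytes, at 1594 ± 391 (SD, n = 3 each). Cdkn1c, which encodes an inhibitor of cell division, was at 9544.50 ± 678, and the growth factor gene Vegfa, which podocytes send to the glomerular endothelium, at 2267 ± 652 (SD, n = 3 each). Zeb2 (278, 522 and 938 in pools 1, 2 and 3) and Angpt1 (477, 429 and 284) were not called without pool 2. With background taken at its 99th percentile, neither these genes nor Sema3a passed.

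**Figure D5:**
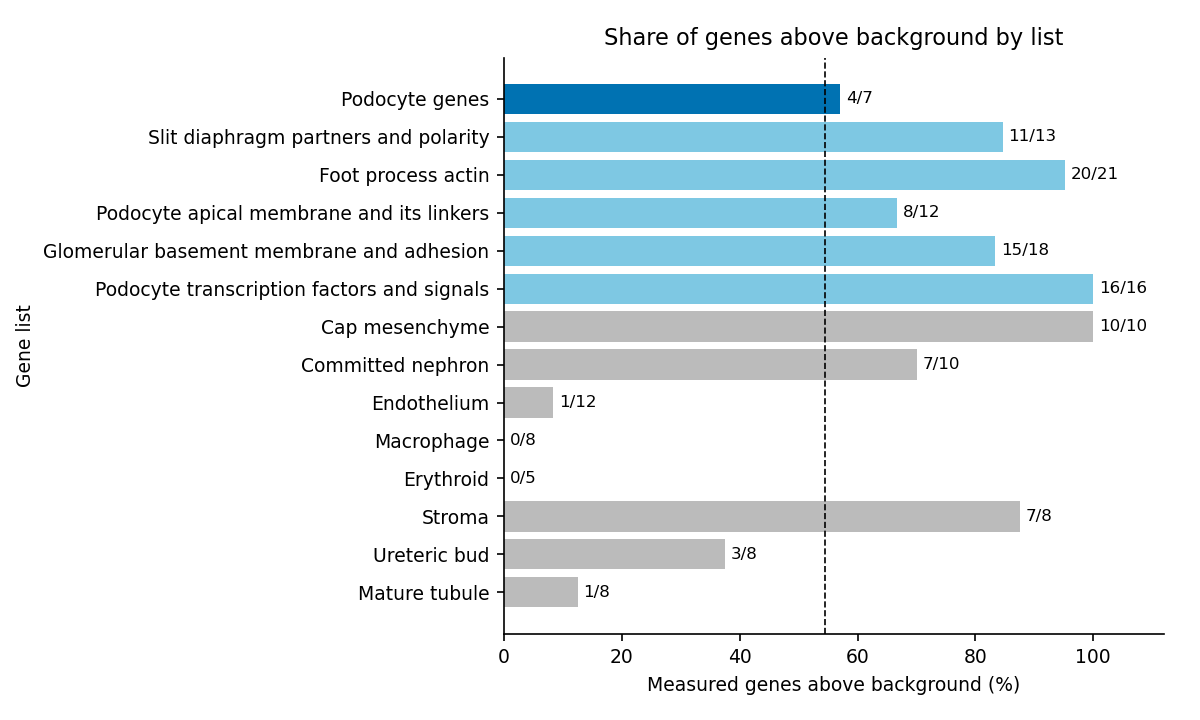
Percent of measured genes above background in each gene list, with the counts beside the bars; the dashed line marks the 54.4% of all named genes, dark blue is the podocyte genes described first, light blue the other podocyte lists and grey the markers of cap mesenchyme and other cells. The podocyte genes reach 57.1% and the regulators 100%, against 8.33% of the endothelial list.

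Markers of the stages and cells that adjoin the progenitors were read from the same fit. Of all named genes, 54.4% were above background, and each count below stands beside that share. Of 10 genes of committed nephron precursors, the stage between cap mesenchyme and podocyte, 7 were above background (70%). Among these were the Wnt ligand gene Wnt4 (5631 ± 921), Pax8 (1959 ± 548), Lhx1 (669.6 ± 90.9) and the Notch ligand gene Jag1 (5201 ± 782, SD, n = 3 each). Pax8 and Lhx1 passed on 1 of 2 probe sets and Jag1 on 1 of 3. Fgf8 was not above background (27.1 ± 29.1, SD, n = 3). The summed signal of these 10 genes was 29528, 29060.4 and 31564 in pools 1, 2 and 3. Stromal genes were called in 7 of 8 cases (87.5%), a count that was 4 at the 99th percentile of background, with Foxd1 at 7565 ± 322 (SD, n = 3). Ureteric bud genes were called in 3 of 8 cases (37.5%, 1 at the 99th percentile) and mature tubule genes in 1 of 8 (12.5%, 0 at the 99th percentile). None of 5 erythroid genes was called in limma, with 0 at an unadjusted p under 0.05, and 1 was called without pool 1. The part of any of these cells in the signals of Cd2ap, Actn4, Ptpro and Podxl was not tested.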

How the data were processed

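Each array gave a linear intensity for every probe set, as deposited; the authors computed it with GCOS, per the submitters' processing notes; its version and settings are not given in the sources used here. As tested on the values, each array has a mean of 1500 after trimming the lowest and highest 2%. Gene names are those of the platform annotation, without the probe sets of several genes (932) or none (9160); 64 controls did not enter. From log2(signal + 16) the 95th percentile of 150 background probe sets of the same array was subtracted, and the mean over 3 arrays was tested against 0 with limma 3.58.1 in R 4.3.3 (intercept-only model, eBayes with intensity trend, one-sided), with Benjamini-Hochberg adjustment. The pseudocount of 16 makes differences of weak signals look smaller. A gene counted as above background when at least 1 of its single-gene probe sets did. The test was tried on simulated data first. Every member, any gene of the fixed lists and the 3 genes most alike in pattern to the member with the largest range could be named. Members and lists were chosen with earlier results of these data known. Alternatives were other percentiles, pseudocounts, quantile normalization, no trend, a signal filter, probe set rules and leaving out each pool. Of 164 list genes, 156 were matched by symbol. RefSeq gene starts came from GRCm38.p6. Python 3.11.15, pandas 2.3.3 and matplotlib 3.10.9 were used.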

Additional observations from a re-analysis of the deposited data

How the results depend on the processing

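The count of 4 podocyte genes above background was 4 under 10 of 12 alternatives and 3 under the other two, the 99th percentile of background and the mean over the probe sets of a gene, with Podxl the gene lost in both. The count of 6 probe sets ranged from 5 to 6 over 11 alternatives. Leaving out a pool gave 4 genes and 6 probe sets each time. Nphs1, Synpo and Clic5 were called under none of 12 alternatives, with the lowest adjusted p at 0.273 for Synpo (limma, 90th percentile of background) in a range up to 1. The 70 other podocyte genes ranged from 64 to 72, and from 66 to 70 when a pool was left out. The 32 cell type markers above background ranged from 23 to 34, and from 31 to 33 when a pool was left out. These 32 include the 10 cap mesenchyme genes and Podxl, Ptpro and Tcf21 of the podocyte defining list, so they overlap with the counts before. The median log2 range of the 7 genes between pools, 0.85, was 0.69 to 0.87 over 3 alternatives. That median includes the 3 genes not above background, and for the 4 genes above it the median was 0.94. The range of Nphs1, 0.20, was 0.03 after quantile normalization. No paired analysis was possible because the samples form a single group. Magi1, Inf2, Cfl1 and Wt1 lost their calls without the probe sets that can match several transcripts, because their called probe sets are among those left out. Without detection calls of the array software, weak genes such as Synpo can be judged only by their signal over the background probe sets.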

Other observations

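The pool pattern of Actn4, the podocyte gene above background with the largest range, was compared with that of 9890 other named genes above background, by Euclidean distance of the log2 deviations from the 3-pool mean. The nearest were 1700037H04Rik (3011, 1444 and 1277 in pools 1, 2 and 3), Zfp84 (1330.25, 637 and 615) and Gm10033 (635, 298 and 298), at distances of 0.051, 0.056 and 0.093. Within a distance of 0.2 there were 39 genes. Of the 70 other podocyte genes above background, the nearest were Wt1 at 0.22 and Foxc2 at 0.26, with 51 and 72 named genes nearer than each; these were chosen after their values were seen. Foxc2 read 8315, 3253 and 3755 and, like Actn4 and Wt1, was highest in pool 1. Likeness over 3 arrays of a single group is a description of those arrays.

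Among the 70 other podocyte genes above background, pool 1 was highest for 27, pool 2 for 22 and pool 3 for 21. Of all probe sets above background, 36% were highest in pool 1, 26.5% in pool 2 and 37.5% in pool 3. A log2 range of at least 1 between pools was found for 10 of the 70 genes. Lamc1, the laminin chain gene shared by embryonic and mature basement membranes, read 2025, 1455 and 540.3 in pools 1, 2 and 3 and was above background (adjusted p = 0.00027, limma). Its log2 range was 1.88, against a median of 0.48 over the 18 measured basement membrane genes. Hspg2 (1617, 1631 and 1668) and Col4a2 (7457, 7909 and 8058) had the smallest ranges of that list, 0.04 and 0.11. Cd151 (0.94) and Lamb2 (0.75), also above background, lay over its median.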
